A study of Cucurbita pepo with 18 samples.

Results

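MYB transcription factors are one of the largest families of plant regulators and are named for the DNA-binding Myb repeat. In *Arabidopsis*, a cascade that starts from NAC proteins such as NST1 and passes through MYB46 to MYB58, MYB63, MYB103, MYB52, and MYB54 switches on the cellulose, xylan, and lignin genes of the secondary cell wall. Other members repress phenylpropanoid genes, control flavonol synthesis, suberin, or the Casparian strip, act in anthers and in the female gametophyte, drive the entry into mitosis, or respond to drought and hormones. The hard hull of a pumpkin seed is a seed coat whose outer layers lay down such walls.

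The MYB members of *Cucurbita pepo* (pumpkin) were taken from the deposited table as every feature whose description holds the Myb-like DNA-binding domain PF00249 and also names a MYB transcription factor, a Myb-related protein, or a MYB transcription repressor. The rule found 111 members among 29484 features. A further 188 features carry the domain with another name, and 25 are named as MYB without it. Of the 111 members, 91 had more than 3 counts in at least 1 library, and 20 were at or under 3 counts in all 18. The names are those of the closest protein in the authors' annotation and are coarse: 24 members are described as MYB44 and 14 as MYB1R1. The study's list of secondary wall orthologs names 4 of the members, and those names are used here.

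RNA came from seed coats of 2 *C. pepo* accessions at 5, 10, and 20 days after pollination (DAP), with 3 biological replicates per accession and stage and 18 libraries in all. The hull-less accession (HL) forms a thin, non-lignified seed coat and, per the study, carries an insertion in *CpNST1* (Cp4.1LG12g04350) that ends translation early; the hulled accession (H) has the ordinary lignified hull. The labels name no treatment. HL and H are different accessions, so the *CpNST1* allele and other differences between them cannot be told apart in these libraries, and whether the replicates came from separate plants is not given, so that p-values measure the spread between these libraries. In bulk seed coats, fewer cells of a type and less RNA per cell cannot be told apart either.

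The libraries held 13827773 to 18443048 counts, and the 3 from H at 20 DAP were the shallowest (13827773 to 15224636). The seed coat identity gene *AGL11* had 442 to 1460 CPM (read counts scaled for library size over the 18 libraries) in every library. H replicate 1 at 10 DAP stood apart from the other 2 of its group, with Pearson correlations of log2 CPM of 0.886 and 0.921, against 0.967 between those 2. Transcripts of embryo and endosperm storage proteins and oleosins (22 listed genes) summed to 2770, 292, and 162 CPM in HL replicates 1 to 3 at 20 DAP, against 8313, 6471, and 1308 CPM in H replicates 1 to 3; at 5 and 10 DAP no library exceeded 369 CPM. *CpNST1* itself averaged 162 ± 24.3 CPM in HL and 33.8 ± 7.57 CPM in H at 20 DAP (SD, n = 3 each); an insertion of this kind need not lower the count of a gene, so this level is no check of the labels.

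Tests were edgeR quasi-likelihood fits over all features of the table. A member is called, or said to be higher or lower, where the Benjamini-Hochberg adjusted p over all features was at or under 0.05 and the log2 fold change was at least 1 in size. Fold changes are log2 of HL over H with their standard error (SE), unless said otherwise. All adjusted p-values below come from edgeR.

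At 20 DAP more MYB members were lower than higher in HL. Of 61 members that passed the low-count filter, 23 were lower in HL and 4 were higher, while 12.7% and 8.37% of all 21973 features tested were called lower and higher in HL. In the median, the log2 fold change was −0.49 over the members and −0.01 over all features. At 5 DAP, 9 of 63 members were higher and 7 lower in HL, against 5.53% and 6.43% of all features. At 10 DAP, 8 of 60 were higher and 7 lower, against 5.42% and 5.56%. The 188 other Myb-domain features gave another balance at 20 DAP, with 13 higher and 10 lower of 137 tested and a median of 0.23. In all, 44 members were called at 1 stage or more. Of the 7 lower at 10 DAP, 6 were among the 23 lower at 20 DAP. Cp4.1LG02g13130 alone was lower at all 3 stages, and no member was higher at all 3. These counts across stages were not made over all features, so they are not shown to be particular to MYB members.

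**Figure D1:**
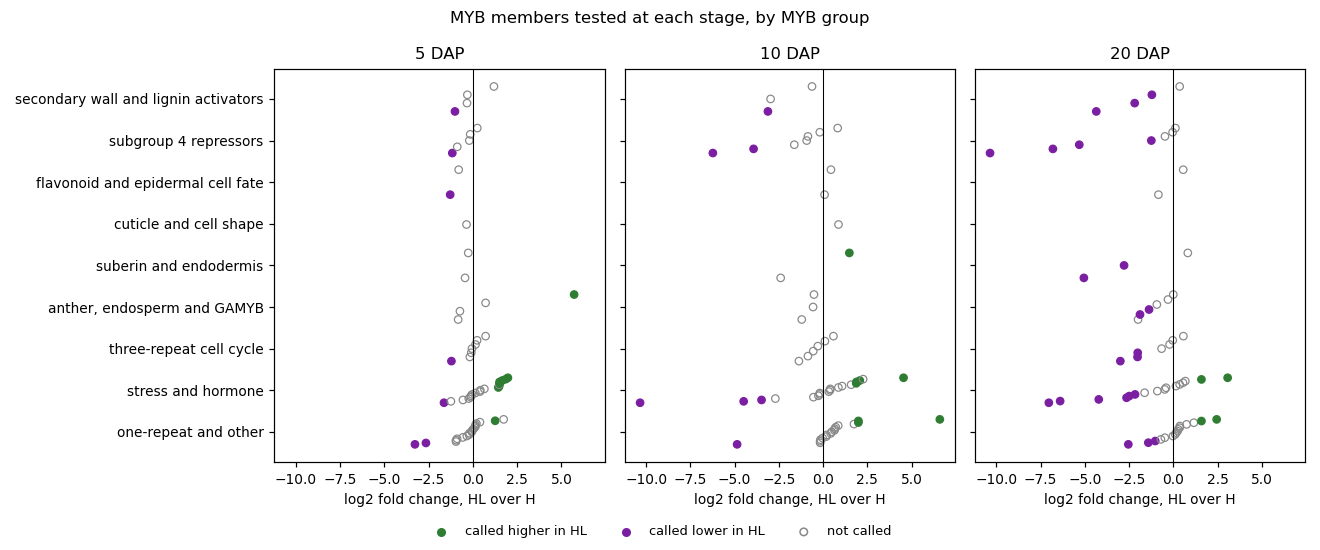
Log2 fold change of HL over H (x axis) for each MYB member tested at 5, 10, and 20 DAP, in rows by MYB group as assigned from the closest protein name. Filled points passed the call (green higher in HL, purple lower in HL) and open points did not; at 20 DAP 23 points are purple and 4 are green, and the lowest stand at −10.36, −7.04, and −6.81.

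Of the 4 secondary wall orthologs, those of *MYB58*/*MYB63* and *MYB103* were lower in HL at both 10 and 20 DAP. The ortholog of *MYB58* and *MYB63* (Cp4.1LG16g07120, LG16 from 7277530 to 7279822, described as Zm1), which in *Arabidopsis* are activators of lignin genes, had 0, 0, and 0 counts in HL and 207, 131, and 136 counts in H at 20 DAP, which is 13.2, 9.25, and 8.71 CPM in H. It was at least 56.9-fold lower in HL, taking 3 counts per library as the floor (adjusted p = 3.01e-04). At 10 DAP it had 1, 1, and 0 counts in HL, against 159, 17, and 51 in H; the ratio of H to HL was 95.1 with a counting interval of 26.0 to 790.0 (95%), and the adjusted p was 0.0178. No HL library of any stage held more than 1 count, so the groups did not overlap at 10 or 20 DAP. Between 20 and 5 DAP it rose in H by a log2 of 4.29 (SE 0.542).

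A second member described as Zm1 (Cp4.1LG05g15660, LG05 from 10775283 to 10776530) followed the same course. It had 0, 0.115, and 0 CPM in HL and 6.25, 4.66, and 5.25 CPM in H at 20 DAP, with 2 counts in all of HL. The ratio of H to HL was 134.0 (counting interval 36.6 to 1110.0, adjusted p = 5.52e-04). At 10 DAP the values were 0.220, 0.427, and 0.150 CPM in HL, against 7.79, 1.93, and 2.95 CPM in H, or −3.93 in log2 (SE 0.725, adjusted p = 0.0197). The files do not give its ortholog, and reads of the 2 Zm1 members could be split between them where their sequences are alike.

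*MYB46* (Cp4.1LG16g08960, LG16 from 8337113 to 8338461), the switch above the wall MYBs in *Arabidopsis*, was seen mainly in H at 10 DAP. There it had 208, 9, and 55 counts (11.1, 0.599, and 3.60 CPM), against 0, 0, and 0 counts in HL. The highest of these came from the library that stands apart. It stayed at or under 3 counts in each library of HL and in each library of H at 20 DAP, and at 1, 11, and 4 counts in H at 5 DAP. It did not pass the low-count filter of any single stage, so no test of HL against H is given here. From these same libraries the study reported a differential expression pattern for *MYB46* and *MYB58*, without naming the stage in its text. The values here for those orthologs are therefore no separate check of that report. A second feature described as MYB46 and both described as MYB26, which acts above *NST1* in *Arabidopsis* anthers, were at or under 3 counts in every library.

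The ortholog of *MYB103* (Cp4.1LG18g08610, LG18 from 7925912 to 7927186, described as MYB86, and listed for other MYB genes too) was transcribed in both accessions. It had 44.3, 26.1, and 49.8 CPM in HL and 101, 78.3, and 100 CPM in H at 20 DAP, a difference of −1.22 in log2 (SE 0.245, adjusted p = 0.00785). The gap was wider at 10 DAP, with 2.93, 1.71, and 4.65 CPM in HL, against 12.5, 35.1, and 33.5 CPM in H (−3.12, SE 0.55, adjusted p = 0.0174). The groups did not overlap at either stage, though without HL replicate 2 the value at 20 DAP fell short of the fold limit (−1.0, adjusted p = 0.00857). At 5 DAP both accessions were low, at 0.597 to 1.37 CPM in HL and 0.234 to 0.660 CPM in H, and overlapped. From 5 to 20 DAP it rose in both, by 5.22 in HL and 7.62 in H on the log2 scale, and the difference between these, −2.40, was called (SE 0.694, adjusted p = 0.0238).

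The ortholog of *MYB52* and *MYB54* (Cp4.1LG20g00070, LG20 from 62954 to 63843, described as MYB44) was a low transcript. It had 0.357, 0.404, and 1.51 CPM in HL and 2.42, 2.19, and 2.37 CPM in H at 20 DAP. The libraries did not overlap, but the log2 fold change of −1.63 (SE 0.582) missed the threshold (adjusted p = 0.0598). Leaving out HL replicate 3 gave −2.60 with an adjusted p of 0.00386. Of the 15 alternatives tried, however, 12 left it without a call, and the log2 fold change ranged from −2.60 to −1.28. Its model overlaps that of Cp4.1LG20g00060 by 603 bases, and how strand was used in the counting is not given, so their reads may be mixed.

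**Figure D2:**
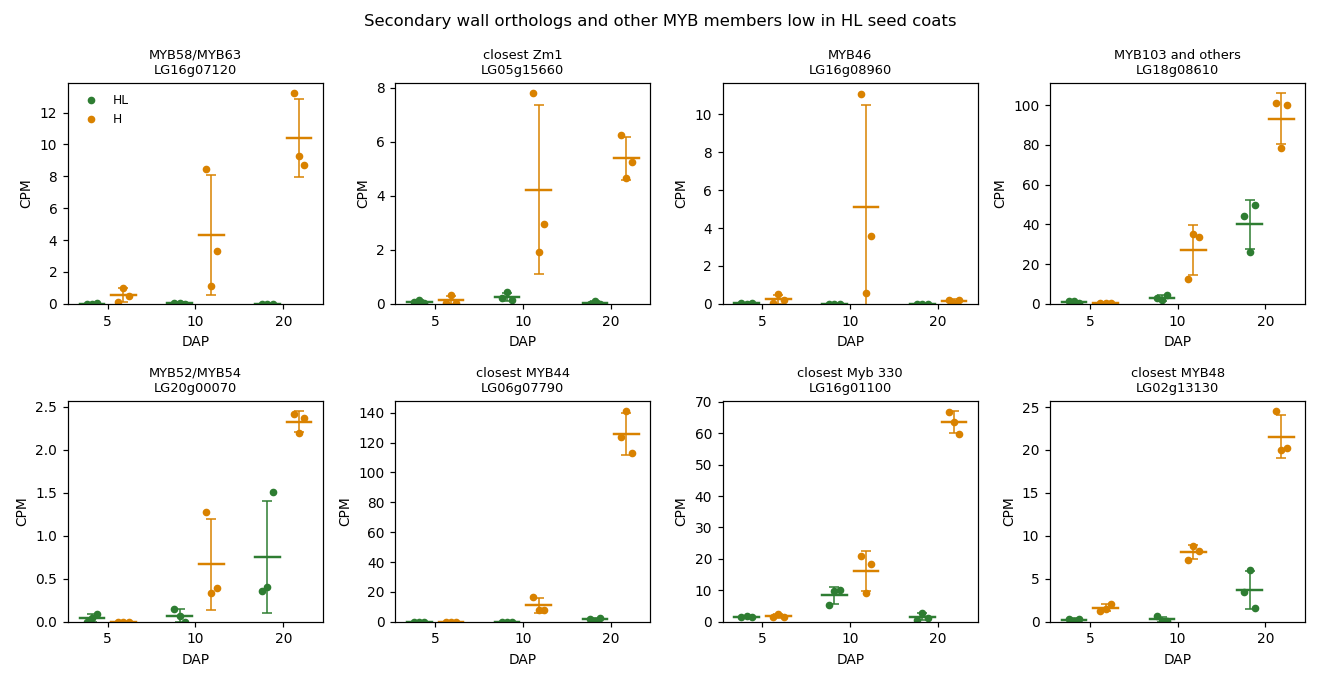
CPM of 8 MYB members by stage (x axis, DAP), with HL in green to the left of H in orange; points are libraries, bars the mean and whiskers the SD of 3. HL libraries lie at or near 0 for the *MYB58*/*MYB63* ortholog, the second Zm1 member, and *MYB46*, while the *MYB103* ortholog averages 40.1 CPM in HL and 93.3 CPM in H at 20 DAP.

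Of the other 3 members closest to MYB86 tested at 20 DAP, 2 were lower in HL, against 12.7% of all features. Cp4.1LG09g10130 had 14.5, 18.7, and 9.93 CPM in HL and 68.8, 58.2, and 68.6 CPM in H (−2.19, SE 0.222, adjusted p = 5.52e-04). Cp4.1LG04g15740 had 0.357, 0, and 0 CPM in HL and 3.06, 1.84, and 2.94 CPM in H (−4.36, SE 0.963, adjusted p = 0.0115). Cp4.1LG11g08530 went the other way in its course. It was lower in HL at 5 DAP, with 1.92, 2.89, and 3.12 CPM in HL and 4.21, 7.15, and 4.62 CPM in H (−1.01, SE 0.27, adjusted p = 0.0319), and at 20 DAP it averaged 4.14 CPM in HL and 3.22 CPM in H with no call. That call at 5 DAP did not survive leaving out any 1 of 5 of the 6 libraries (adjusted p 0.0548 to 0.0864).

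Subgroup 4 repressors hold down phenylpropanoid genes in *Arabidopsis* and *Antirrhinum*. In that group 4 of 7 members were lower in HL at 20 DAP and none higher, against 12.7% and 8.37% of all features. The median of the group was −1.25. These 4 include both Zm1 members described above, of which one is the ortholog of an activator, so the name of the group does not describe what all of its members do. Cp4.1LG02g10650, described as the repressor MYB6, is also among the 4. At 20 DAP it had 10.6, 12.9, and 10.3 CPM in HL and 30.5, 27.2, and 22.0 CPM in H. Its call held whichever single library was left out. Cp4.1LG16g01100 (LG16 from 2059025 to 2060705), described as Myb-related protein 330, gave the widest gap among the abundant ones. It had 0.595, 2.83, and 1.32 CPM in HL and 66.9, 63.7, and 59.9 CPM in H at 20 DAP (−5.32, SE 0.43, adjusted p = 2.13e-04). At 5 DAP the accessions overlapped, with means of 1.59 CPM in HL and 1.84 CPM in H. It rose 5.12 in H between 5 and 20 DAP on the log2 scale, and the difference between the accessions in that change was −5.11 (SE 0.631, adjusted p = 7.82e-05). A second Myb 330 member, Cp4.1LG06g10160, averaged 12.9 CPM in HL and 17.9 CPM in H at 20 DAP and rose in both accessions (2.26 in HL and 3.0 in H). The member Cp4.1LG16g03130, described as a Myb-related protein of *Antirrhinum*, averaged 36.5 CPM in HL and 33.6 CPM in H at 20 DAP with no call.

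Members that no wall list names were also lower in HL at 10 and 20 DAP. Cp4.1LG06g07790 (LG06 from 5735571 to 5736407), described as MYB44, had 0 counts in each HL library at 10 DAP and 16.7, 7.85, and 8.12 CPM in H, and was at least 49.7-fold lower in HL (adjusted p = 0.00769). At 20 DAP it had 1.61, 0.635, and 2.30 CPM in HL and 124, 141, and 113 CPM in H, or −6.40 in log2 (SE 0.375, adjusted p = 6.27e-05). The lowest H library at 20 DAP stood far above the highest HL library. It rose between 5 and 20 DAP in both accessions, with 1 count over the 3 libraries of each at 5 DAP.

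Cp4.1LG13g04250, also described as MYB44, had 6.72, 6.75, and 7.10 CPM in HL and 42.9, 40.0, and 32.9 CPM in H at 20 DAP (−2.50, SE 0.138, adjusted p = 5.24e-05). At 10 DAP it had 0.0732, 0.0711, and 0.300 CPM in HL and 5.98, 2.20, and 2.36 CPM in H (−4.49, SE 0.739, adjusted p = 0.0144). It was at or under 1 count in each library at 5 DAP. The groups were separate at both later stages.

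Cp4.1LG02g13130 (LG02 from 11327008 to 11327879), described as MYB48, was the member lower in HL throughout. At 5 DAP it had 0.304, 0.0965, and 0.367 CPM in HL and 1.29, 1.54, and 2.08 CPM in H (−2.65, SE 0.444, adjusted p = 0.00551). At 10 DAP it had 0.658, 0.0711, and 0.0750 CPM in HL and 7.20, 8.85, and 8.25 CPM in H (−4.86, SE 0.754, adjusted p = 0.0125). At 20 DAP it had 3.45, 6.0, and 1.58 CPM in HL and 24.5, 20.0, and 20.2 CPM in H (−2.55, SE 0.414, adjusted p = 0.00353). The accessions never overlapped, yet the member rose with time in each, by 3.82 in HL and 3.73 in H between 5 and 20 DAP.

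Among members named for barrier layers, MYB36, which in *Arabidopsis* directs the Casparian strip, and MYB39, a suberin regulator there, were lower in HL at 20 DAP. The MYB36 member (Cp4.1LG04g10580) had 0.119, 0.231, and 0 CPM in HL and 2.81, 5.58, and 4.42 CPM in H (−5.06, SE 0.692, adjusted p = 0.00181). The MYB39 member (Cp4.1LG19g07580) had 0.714, 0.115, and 0.132 CPM in HL and 2.81, 2.19, and 1.79 CPM in H (−2.79, SE 0.678, adjusted p = 0.0162), a call lost without H replicate 1 or 2 (adjusted p 0.0569 and 0.0523). RAX3 (Cp4.1LG07g06300), whose *Arabidopsis* namesake acts in axillary meristems, was instead higher in HL at 10 DAP, with 37.2, 52.2, and 23.2 CPM in HL and 18.5, 12, and 10.3 CPM in H (1.48, SE 0.352, adjusted p = 0.0405). RAX3 fell between 5 and 20 DAP in both accessions, by −4.86 in HL and −5.92 in H, and had 78.3 CPM in HL and 93.2 CPM in H on average at 5 DAP.

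The 3-repeat MYBs of *Arabidopsis* and tobacco control genes of the G2 and M phases. Of the 7 members named for them, 3 were lower in HL at 20 DAP, against 12.7% of all features. The group rests on the closest protein name, and Cp4.1LG20g00060, which is in it and was not called, is only 186 bases long. Cp4.1LG02g04920 had 1.84, 0.231, and 0.0658 CPM in HL and 6.76, 5.72, and 4.87 CPM in H (−3.0, SE 0.875, adjusted p = 0.0311). Cp4.1LG11g05310 had 1.90, 0.866, and 0.395 CPM in HL and 4.72, 3.95, and 4.29 CPM in H (−2.03, SE 0.514, adjusted p = 0.0189). Cp4.1LG07g02300 had 1.96, 0.635, and 0.658 CPM in HL and 4.27, 5.22, and 3.78 CPM in H (−2.02, SE 0.483, adjusted p = 0.0152). In all 3, HL replicate 1 was the highest HL library, and it is also the HL library with the most storage-protein and oleosin counts. In H, replicates 1 to 3 stood in the order of those counts for Cp4.1LG02g04920 but not for Cp4.1LG11g05310 or Cp4.1LG07g02300. The part of embryo or endosperm RNA in these levels was not tested. The call for Cp4.1LG02g04920 was lost without H replicate 1, 2, or 3 or HL replicate 2 (adjusted p 0.0655 to 0.0866), that for Cp4.1LG11g05310 without the same libraries (0.0527 to 0.0643), and that for Cp4.1LG07g02300 without H replicate 2 (0.0577). B-type cyclins are targets of these MYBs in *Arabidopsis*. At 20 DAP the 10 listed ones summed to 38.1 to 55.4 CPM in HL and 68.6 to 87.3 CPM in H. Of the 9 tested, 2 were lower in HL, against 12.7% of all features.

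Of the members named for anthers and the embryo sac, 6 were tested at 20 DAP. In HL 2 of these were lower, against 12.7% of all features. MYB98, which in *Arabidopsis* acts in synergid cells, had a member (Cp4.1LG01g23340) with 10.2, 5.48, and 1.18 CPM in HL and 15.2, 23.7, and 23.5 CPM in H at 20 DAP (−1.89, SE 0.614, adjusted p = 0.0443). It had no count in any library at 5 DAP, and its call was lost without any 1 H replicate or HL replicate 2 (adjusted p 0.0723 to 0.121). The other two MYB98 members were not called at 20 DAP. Cp4.1LG20g08020 had 3.33, 1.38, and 0.263 CPM in HL and 5.29, 2.89, and 1.34 CPM in H, and the groups overlapped. Cp4.1LG13g09040 had 0.476, 0.404, and 0 CPM in HL and 1.53, 1.2, and 0.896 CPM in H, with no overlap. Replicates 1 to 3 stood in the order of their storage-protein and oleosin counts for all 3 members in HL and, in H, for Cp4.1LG20g08020 and Cp4.1LG13g09040 but not for Cp4.1LG01g23340; the part of embryo or endosperm RNA in these levels was not tested. MYB80 (Cp4.1LG14g07930), a tapetum regulator in *Arabidopsis*, had the highest log2 fold change of the members at 5 DAP, with 3.60, 3.42, and 3.86 CPM in HL and 0, 0.140, and 0.0472 CPM in H (5.72, SE 0.517, adjusted p = 5.29e-04). At 20 DAP the order was turned round, with 1.01, 0.750, and 0.723 CPM in HL and 3.25, 1.55, and 1.66 CPM in H (−1.38, SE 0.424, adjusted p = 0.0368), a call that leaving out any 1 of the 6 libraries removed (adjusted p 0.05 to 0.132). It fell 2.11 in HL and rose 4.97 in H between 5 and 20 DAP, and the difference was −7.07 (SE 1.04, adjusted p = 3.25e-04).

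**Figure D3:**
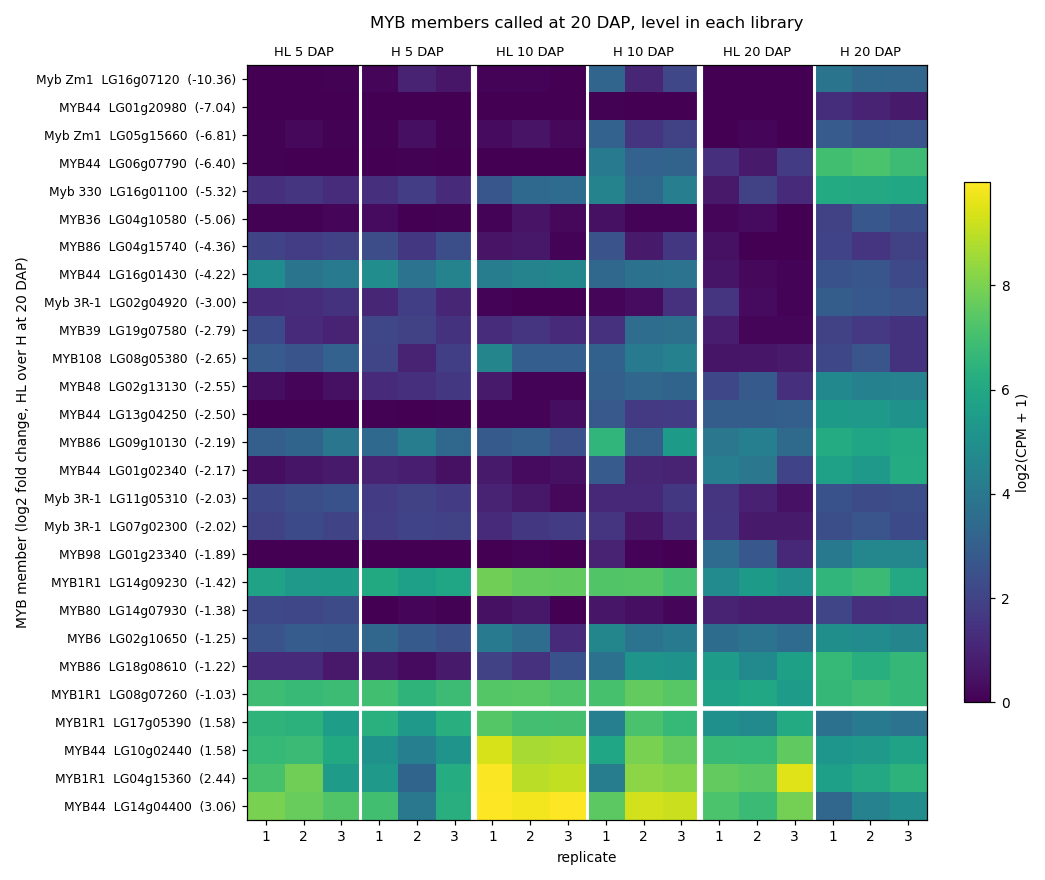
Level of the 27 MYB members called at 20 DAP in each of the 18 libraries, as log2(CPM + 1), with HL to the left of H at each stage; rows are ordered by the log2 fold change of HL over H at 20 DAP, printed beside each name. The 23 members above the white line are lower in HL at 20 DAP and the 4 below it are higher.

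The 4 members higher in HL at 20 DAP were all closest to MYB44 or MYB1R1, names of stress-responsive MYBs of *Arabidopsis* and potato. Cp4.1LG14g04400 (MYB44) had 142, 110, and 234 CPM in HL and 8.74, 20.6, and 28.9 CPM in H (3.06, SE 0.474, adjusted p = 0.00292). Cp4.1LG04g15360 (MYB1R1) had 192, 170, and 722 CPM in HL and 48.9, 64.2, and 85.9 CPM in H (2.44, SE 0.593, adjusted p = 0.0162). Cp4.1LG10g02440 (MYB44) had 107, 101, and 185 CPM in HL and 37.1, 40.9, and 53.5 CPM in H (1.58, SE 0.268, adjusted p = 0.0042). Cp4.1LG17g05390 (MYB1R1) had 30.9, 25.5, and 67.4 CPM in HL and 12.3, 16.1, and 13.1 CPM in H (1.58, SE 0.37, adjusted p = 0.0145). HL replicate 3 was the highest library in all 4, and none overlapped. The MYB1R1 calls were lost without H replicate 1 (adjusted p 0.0619 for Cp4.1LG04g15360 and 0.0545 for Cp4.1LG17g05390), without H replicate 2 for Cp4.1LG04g15360 (0.0639), and without H replicate 3 for Cp4.1LG17g05390 (0.0516).

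Not all members of these names moved that way. Of the 12 MYB44 members tested at 20 DAP, 2 were higher and 5 lower in HL. Of the 10 MYB1R1 members 2 were higher and 2 lower. Over all features 8.37% were higher and 12.7% lower. Cp4.1LG16g01430 (MYB44) had 0.476, 0.173, and 0.0658 CPM in HL and 4.78, 5.44, and 3.58 CPM in H (−4.22, SE 0.571, adjusted p = 0.00175). Cp4.1LG01g02340 (MYB44) had 18.3, 14.7, and 3.03 CPM in HL and 50.8, 41.2, and 69.3 CPM in H (−2.17, SE 0.557, adjusted p = 0.0197), a call lost without H replicate 1 or 3 (adjusted p 0.0504 and 0.0618). Cp4.1LG01g20980 (MYB44) had 0 counts in each HL library and 23, 14, and 10 counts in H, at least 5.65-fold lower in HL (adjusted p = 0.00589). The MYB1R1 members Cp4.1LG08g07260 and Cp4.1LG14g09230 were lower in HL by smaller steps, −1.03 (SE 0.15, adjusted p = 0.00231) and −1.42 (SE 0.242, adjusted p = 0.00431); the first fell short of the fold limit without HL replicate 3 (−0.92) or H replicate 2 (−0.94).

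These stress-named members also held most of the transcripts of the family. FPKM are the authors' values scaled for transcript length and for depth, and how depth was scaled is not given. On FPKM, the median member averaged 1.11 over the 18 libraries, and 58 members reached 1. The 8 highest, 5 closest to MYB44 and 3 to MYB1R1, made up 63.8% of the family's summed mean FPKM. Cp4.1LG07g04980 (MYB44) led with 159 ± 50.9, 1580 ± 95.1, and 456 ± 39.9 FPKM in HL at 5, 10, and 20 DAP, and 145 ± 34.4, 426 ± 211.0, and 290 ± 89.2 FPKM in H (SD, n = 3 each). Cp4.1LG14g04400 followed with 159 ± 38.9, 753 ± 42.7, and 126 ± 50.4 FPKM in HL and 56.7 ± 43.9, 355 ± 190.0, and 15.3 ± 8.01 FPKM in H. In 7 of the 8 the mean was highest at 10 DAP in HL, and Cp4.1LG09g10470 was the exception, with 45.8, 70, and 169 FPKM in HL and 42.7, 77.4, and 101 FPKM in H. The summed CPM of the family had medians of 1740, 5430, and 2250 in HL and 1420, 3170, and 2170 in H at the 3 stages; at 10 DAP the HL libraries (5170 to 6360) lay above those of H (2040 to 3450).

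**Figure D4:**
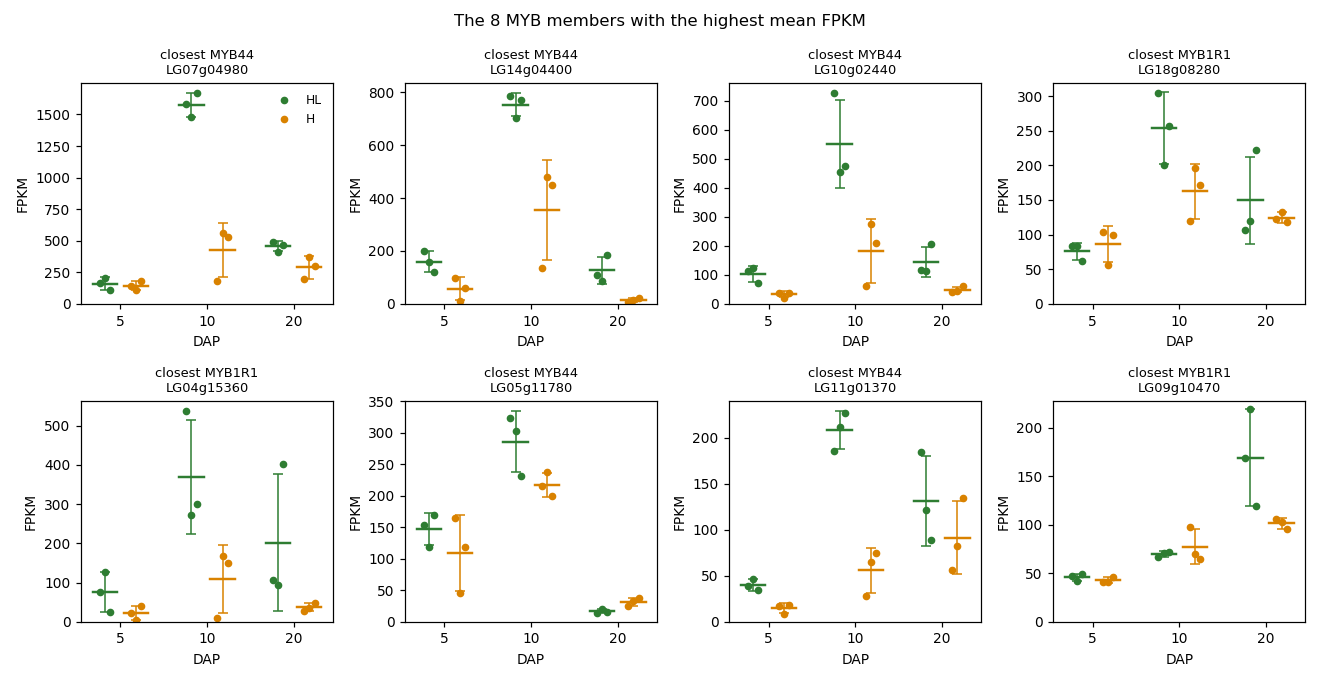
FPKM of the 8 MYB members with the highest mean over the 18 libraries, by stage (x axis, DAP), with HL in green to the left of H in orange; points are libraries, bars the mean and whiskers the SD of 3. Cp4.1LG07g04980 averages 1580 FPKM in HL and 426 FPKM in H at 10 DAP, the widest gap in FPKM of the plot.

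At 10 DAP the call for Cp4.1LG07g04980 rested on 1280, 1200, and 1350 CPM in HL and 151, 465, and 436 CPM in H (1.87, SE 0.464, adjusted p = 0.0449). Cp4.1LG11g01370 (MYB44) had 162, 185, and 197 CPM in HL and 24.8, 57.5, and 66.0 CPM in H (1.88, SE 0.383, adjusted p = 0.0257), and it was higher in HL at 5 DAP too (1.44, SE 0.293, adjusted p = 0.0119). The MYB1R1 members Cp4.1LG12g08460 and Cp4.1LG01g03470 were each higher by 1.99. In each of these the lowest value came from H replicate 1, the library that stands apart, but without it the same 4 members stayed called, at 1.52 (adjusted p = 0.00255), 1.57 (0.0023), 1.68 (0.00357), and 1.69 (0.0216). Without that library 12 members were higher and 8 lower in HL at 10 DAP, against 8 and 7 with it. Over all features the counts also grew, to 1709 higher and 1635 lower, against 1144 and 1174 with it.

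The 10 DAP calls were the least stable of the 3 stages. This was not particular to the MYB members. Over all features, 1144 were higher and 1174 lower with all 6 libraries, and 444 and 405 without HL replicate 2. Of the 15, only 3 held when any 1 of the 6 libraries was left out: Cp4.1LG06g07790, described above, and 2 that were higher in HL. The first of these, Cp4.1LG07g04550 (MYB44), had 10.5, 14.7, and 10.7 CPM in HL and 2.61, 2.66, and 3.34 CPM in H (2.07, SE 0.25, adjusted p = 0.00683). The other, Cp4.1LG14g01290 (MYB29, in *Arabidopsis* a regulator of aliphatic glucosinolates), had 2.85, 4.41, and 6.45 CPM in HL and 0.107, 0, and 0 CPM in H, where 2 counts stood behind the H values; the ratio was 112.0 with a counting interval of 30.5 to 929.0 (adjusted p = 0.00799). The calls for the *MYB58*/*MYB63* ortholog and the second Zm1 member at 10 DAP were lost without H replicate 3 (adjusted p 0.0567 and 0.0573). They were also lost without each HL replicate (0.0651 to 0.0835). Over all alternatives the log2 fold change ranged from −6.70 to −5.28 for the first and from −4.43 to −3.14 for the second. The calls for the *MYB103* ortholog were lost without H replicate 3 or HL replicate 1 or 2 (0.0641 to 0.0737), and those for Cp4.1LG13g04250 without HL replicate 1 or 2 (0.0634 and 0.0712). For Cp4.1LG02g13130 the losses came without H replicate 3 or HL replicate 2 or 3 (0.0503 to 0.0546). Cp4.1LG12g06290 (MYB108, a jasmonate-responsive factor of *Arabidopsis*) had 1.46, 0.427, and 0.375 CPM in HL and 14.4, 6.06, and 5.37 CPM in H (−3.48, SE 0.687, adjusted p = 0.0236), and was also lost without H replicate 3 or HL replicate 2 or 3 (0.0599 to 0.0966). Cp4.1LG07g04980, Cp4.1LG11g01370, and Cp4.1LG01g03470 were lost without any 1 of 5 libraries, H replicate 1 excepted (0.0525 to 0.13), Cp4.1LG12g08460 without H replicate 3 or any HL replicate (0.0630 to 0.0815), and RAX3 without H replicate 2 or 3 or HL replicate 1 or 2 (0.106 to 0.135). Cp4.1LG03g03570 (MYB44) was lost without any 1 of the same 5 libraries (0.0627 to 0.0896).

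At 5 DAP 7 of the 9 members higher in HL belonged to the stress and hormone group, which held 19 of the 63 tested. At 20 DAP that group had 2 higher and 6 lower in HL of 16 tested. Of the 13 MYB44 members tested at 5 DAP, 5 were higher and 1 lower in HL, against 5.53% and 6.43% of all features. Cp4.1LG07g04550 had 24.9, 44.8, and 45.2 CPM in HL and 13.1, 3.50, and 12.2 CPM in H (1.98, SE 0.481, adjusted p = 0.0222). Cp4.1LG10g02440 had 101, 111, and 65.5 CPM in HL and 34.4, 18.8, and 34.7 CPM in H (1.66, SE 0.303, adjusted p = 0.0078). The MYB108 member Cp4.1LG13g04850 had 68.9, 36.4, and 65.4 CPM in HL and 23.9, 6.77, and 16.1 CPM in H (1.86, SE 0.46, adjusted p = 0.0239). H replicate 2 was the lowest library in each of these, and the accessions did not overlap. The count of higher members was 10 without H replicate 2, 4 without H replicate 3, and 5 without any 1 HL replicate. The calls for Cp4.1LG07g04550 and Cp4.1LG13g04850 were lost without H replicate 3 (adjusted p 0.0535 and 0.0765) and without 2 of the HL replicates each (0.0580 to 0.0745).

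Others that were lower in HL at 5 DAP included MYB12 (Cp4.1LG12g03120), the flavonol regulator of *Arabidopsis*, with 7.29, 5.26, and 5.51 CPM in HL and 11.7, 18.4, and 13.6 CPM in H (−1.28, SE 0.208, adjusted p = 0.00493). Its neighbour at a gap of 2735 bases, Cp4.1LG12g03010, also described as MYB12, averaged 2.86 CPM in HL and 5.01 CPM in H with no call. That neighbour is 4485 bases long, and its description also lists a DUF761-associated motif and DUF4378, so its counts may not all be those of a MYB. MYB29 (Cp4.1LG14g01290), higher in HL at 10 DAP, was lower at 5 DAP, with 0.608, 0.338, and 0.642 CPM in HL and 4.35, 7.05, and 4.1 CPM in H (−3.27, SE 0.337, adjusted p = 8.63e-04). Cp4.1LG03g03570 (MYB44) changed sides in the same way, at −1.63 (SE 0.422, adjusted p = 0.0278) at 5 DAP and 4.54 (SE 0.907, adjusted p = 0.0245) at 10 DAP, with no more than 1.68 CPM in any library; the call at 5 DAP was lost without HL replicate 2 or 3 or H replicate 2 or 3 (0.0611 to 0.102). MYB6 (Cp4.1LG00g00590) averaged 22.2 CPM in HL and 49.6 CPM in H (−1.16, SE 0.228, adjusted p = 0.0103), and a member named as a 3-repeat MYB (Cp4.1LG06g04540) averaged 3.86 CPM in HL and 8.94 CPM in H (−1.21, SE 0.186, adjusted p = 0.00387). Without H replicate 2 the MYB6 member fell short of the fold limit, at −0.84, and 4 members in all were lower; without H replicate 1, 11 were.

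Between 5 and 20 DAP more members rose than fell in H but not in HL. In HL, 20 of 63 members rose and 20 fell, against 18% and 23.1% of all features. In H, 28 of 71 rose and 14 fell, against 19.8% and 20.6%. Of the 28 that rose in H, 16 also rose in HL (of 20 there), 7 were not tested in HL, and 1 (the MYB80 member Cp4.1LG14g07930) fell in HL. Of the 14 that fell in H, 9 also fell in HL (of 20 there). Such overlap between accessions was not counted over all features, so it is not shown to be particular to MYB members. The members that rose in both included the Myb P member Cp4.1LG17g00460, with 188 CPM at 20 DAP and 16.6 CPM at 5 DAP in HL (3.51, SE 0.128) and 159 CPM at 20 DAP and 32.1 CPM at 5 DAP in H (2.33, SE 0.15). This feature is 7471 bases long, and its description also lists a DUF761-associated motif and the domain DUF4378. Whether its counts come from a MYB transcript was not tested.

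Whether this change differed by accession was tested directly, as HL minus H, in 1 fit over all 18 libraries. Of 76 members, 14 were lower, meaning that the change was more negative in HL, and 3 were higher, against 7.85% and 6.03% of 24259 features. The lowest was Cp4.1LG07g04550 (MYB44), with 1 count in all 3 HL libraries at 20 DAP and 38.3 CPM on average in HL at 5 DAP, while H averaged 2.60 CPM at 20 DAP and 9.59 CPM at 5 DAP. The difference was −8.56 (SE 1.30, adjusted p = 4.18e-04). The MYB108 member Cp4.1LG13g04850 had 0, 0.0577, and 0.0658 CPM in HL and 2.55, 3.81, and 0 CPM in H at 20 DAP, and its difference was −7.34 (SE 1.52, adjusted p = 0.00375). HL and H overlap there, because H replicate 3 held no count. Another MYB108 member, Cp4.1LG08g05380, had 0.476, 0.519, and 0.658 CPM in HL and 3.51, 5.22, and 1.73 CPM in H at 20 DAP, against 6.38, 5.02, and 7.80 CPM in HL and 3.20, 0.981, and 2.59 CPM in H at 5 DAP, and gave −4.15 (SE 0.829, adjusted p = 0.00288).

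The 3 with a positive difference were MYB12 (1.83, SE 0.435, adjusted p = 0.0085), the MYB86 member Cp4.1LG11g08530 (1.37, SE 0.456, adjusted p = 0.0457), and the Myb P member (1.18, SE 0.209, adjusted p = 0.00124). MYB12 averaged 10.2 CPM at 20 DAP and 6.02 CPM at 5 DAP in HL, and 6.97 CPM at 20 DAP and 14.6 CPM at 5 DAP in H. The listed flavonoid enzymes summed to 836 to 1010 CPM in HL and 1370 to 1590 CPM in H at 20 DAP. Of the 12 tested, 6 were lower and 1 higher in HL, against 12.7% and 8.37% of all features.

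**Figure D5:**
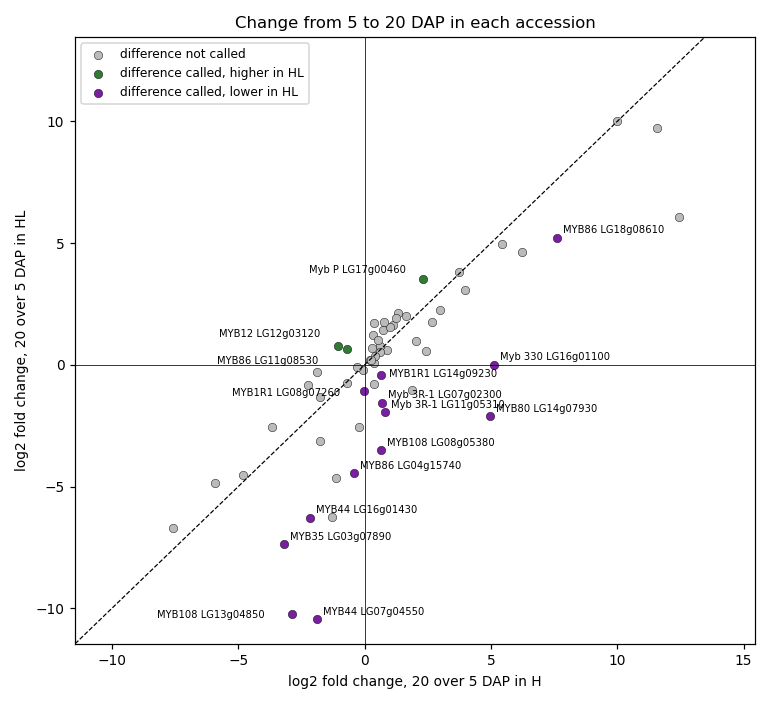
Log2 fold change of 20 over 5 DAP in H (x axis) and in HL (y axis) for the 61 MYB members tested in both accessions; the dashed line marks equal change. Purple points, 13 below the line, and green points, 3 above it, are those whose difference between accessions was called, and each is named.

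At 20 DAP the counts of storage-protein and oleosin genes were higher in H replicates 1 and 2 than in any HL library. The accessions overlapped, with 1308 CPM in H replicate 3 and 2770 CPM in HL replicate 1. The part of other tissues in the MYB results was not tested. Within H the storage-protein and oleosin counts were lowest in replicate 3. With H replicates 1 and 2 both left out, which leaves a single H library and assumes that it varies as the HL libraries do, 7 members were lower and none higher in HL at 20 DAP, and 6 of the 7 were among the 23. Over all features, such a fit called 938 lower and 861 higher, against 2789 and 1839 with all 6 libraries. With HL replicate 1 left out as well, 4 members were lower and none higher. Light-harvesting genes (31 listed), which mark the green chlorenchyma layer, moved the opposite way, at 4640 to 5760 CPM in HL and 1890 to 2230 CPM in H at 20 DAP.

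The genes that the wall MYBs are known to act on in *Arabidopsis* were mostly lower in HL at 20 DAP, in a list taken from the orthologs the study named. From these same libraries the study had reported the cellulose synthases as low in hull-less coats and several lignin genes as high in hulled ones. Their direction was thus known beforehand, and the values below describe them without being a separate test. The 3 secondary wall cellulose synthases were lower at 20 DAP (log2 fold changes −8.25, −5.65, and −6.43) and at 10 DAP. Of 10 lignin enzymes, 8 were lower and none higher at 20 DAP, and their median was −2.71. Over all features tested at 20 DAP, 12.7% were lower and 8.37% higher. *CesA7* (Cp4.1LG00g03460) averaged 0.359 ± 0.145 CPM in HL and 113 ± 6.5 CPM in H, and the caffeoyl-CoA O-methyltransferase Cp4.1LG15g04800 averaged 0.534 ± 0.295 CPM in HL and 185 ± 46.0 CPM in H (SD, n = 3 each). Of the 7 listed wall regulators outside the MYB family tested at 20 DAP, 4 were lower and *CpNST1* was higher.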

How the data were processed

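RNA-seq of 18 seed coat libraries was analysed from the table of read counts per feature that the authors deposited. Per the study's methods, reads of low quality were dropped before mapping to the *C. pepo* (zucchini) genome, whose features carry Cp4.1 identifiers. The aligner, counting tool, and strand setting are not given in the sources used here. FPKM values were made by the authors with Cufflinks and were used to compare levels between genes; feature lengths (other values) are those the authors deposited. Further files held the authors' own comparisons (fold changes and p-values) and were not used.

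Counts were tested with edgeR 4.0.16 in R 4.3.3 (filterByExpr, TMM, quasi-likelihood) on the 6 libraries compared, and for the difference between accessions on all 18. All features were adjusted together. SE is the fold change over the root of F. The members and lists were chosen with earlier results of these data known. Marker lists were narrowed to the closest-protein name after the matching entries were seen. As alternatives, scaling by RLE or upper quartile was tried, with DESeq2 1.42.0, other count filters, no fold limit, a replicate block, a joint fit, and fits without single libraries; those that leave out several at once were chosen after seeing the data. Members named with values are the secondary wall orthologs, the 8 highest and 8 lowest called members of each stage with no overlap and a mean of 1 CPM or more, the 8 highest by FPKM, and the 5 highest and 5 lowest of the difference between accessions. For the members named by stage, the lack of overlap was thus a condition of naming them and adds no evidence. Others named (such as Cp4.1LG02g13130 at 5 DAP and the 20 DAP members beyond the 8 lowest) were chosen after their values were seen. Floors and intervals cover counting error only. The fit was tested on simulated data. Of 111 member identifiers, 0 matched the RefSeq table given, so sequences are not shown.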

Additional observations from a re-analysis of the deposited data

Results flagged for a closer look

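Between 5 and 20 DAP, HL and H changed by different amounts (edgeR, all 18 libraries, adjusted over all features) for these members among the wall orthologs and the 5 highest and 5 lowest. The log2 difference of HL minus H was −8.56 for Cp4.1LG07g04550 (MYB44), −7.34 for Cp4.1LG13g04850 (MYB108), and −7.07 for Cp4.1LG14g07930 (MYB80). It was −6.07 for Cp4.1LG05g15660 (Zm1), −5.11 for Cp4.1LG16g01100 (Myb 330), and −2.40 for Cp4.1LG18g08610 (the *MYB103* ortholog). It was 1.83 for Cp4.1LG12g03120 (MYB12), 1.37 for Cp4.1LG11g08530 (MYB86), and 1.18 for Cp4.1LG17g00460 (Myb P, a long feature whose description lists further domains).

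The value of Cp4.1LG13g04850 depended on H replicates 1 and 2 at 20 DAP, since H replicate 3 held no count: without both it was 0.88 (adjusted p = 0.88). That of Cp4.1LG05g15660 rested on 1, 3, and 1 counts in HL at 5 DAP and 0, 2, and 0 at 20 DAP, with 1, 7, and 1 in H at 5 DAP. Its size is thus uncertain, and it ranged from −8.78 to −5.41 over the alternatives. It lost its call without HL replicate 2 at 5 DAP (adjusted p = 0.0924). The value of Cp4.1LG18g08610 lost its call without H replicate 2 or HL replicate 1 or 2 at 5 DAP (adjusted p 0.0602 to 0.0624). The call for Cp4.1LG11g08530 was lost without any of 12 single libraries, with adjusted p between 0.0502 and 0.126. The MYB80 member fell by 2.11 in HL and rose by 4.97 in H.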

How the results depend on the processing

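Of the 109 member results with a call or a study name, 1728 values were computed under alternatives: 1525 kept their direction and their side of the threshold, 197 lost the call, 4 gained it, and 2 reversed. Both reversals were the difference in the 5 to 20 DAP change of Cp4.1LG13g04850 (−7.34 with all libraries), which was 0.88 without H replicates 1 and 2 at 20 DAP and 1.42 without HL replicate 1 as well; H replicate 3 holds no count of it. The count of members lower in HL at 10 DAP was 7, and it was 12 with DESeq2, 16 in the joint fit of all 18 libraries, 1 with at least 10 counts in every library, and 1 with the replicate block. The count higher at 10 DAP was 8, and 0 with the block. Same-numbered replicates did not pair (correlations of their deviations at 5 DAP were 0.262, −0.254, and −0.22). The count higher at 5 DAP was 9, and 4 in the joint fit. A filter of 10 counts in every library, which tests fewer members, gave 3 lower at 5 DAP (7 in the report), 13 lower at 20 DAP (23), 12 higher and 7 lower at 20 against 5 DAP in HL (20 and 20), 13 higher and 8 lower in H (28 and 14), and 4 lower for the difference between accessions (14). Leaving out 1 library gave 4 to 10 higher and 4 to 11 lower at 5 DAP, 2 to 12 higher and 1 to 9 lower at 10 DAP, 2 to 4 higher at 20 DAP, and 2 to 5 higher for the difference between accessions. Without H replicates 1 and 2 at 20 DAP the counts were 0 higher and 7 lower at 20 DAP, and 1 higher and 6 lower for the difference between accessions; without HL replicate 1 as well they were 0 and 4, and 1 and 7. The causes of these changes were not tested beyond the fewer members or libraries each fit holds. Depth limits the low members: 3 counts in a library of this size set the floor.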
